A study of Mus musculus with 6 samples.

Results

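Krüppel-like factors (KLFs) are transcription factors with C2H2 zinc fingers near the C terminus, through which they bind GC-rich and CACCC elements in promoters and enhancers. The fingers are much alike across the family, whereas the N-terminal parts differ and recruit either coactivators or corepressors. In fibroblasts several KLF genes, among them Klf4, Klf6 and Klf10, are known to be induced quickly by serum and growth factors, and family members act in proliferation, quiescence and differentiation.

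The 10 KLF genes described here, Klf2, Klf3, Klf4, Klf5, Klf6, Klf7, Klf9, Klf10, Klf13 and Klf15, were chosen by name from 17 Klf symbols in a table of 55401 genes. All 10 were among the 16773 genes with an adjusted p-value. The choice by name did not use a measured value, but it was made with earlier results of these data known.

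RNA was sequenced from immortalised mouse embryo fibroblasts (iMEF) treated with dTAG-13 for 24 h and from untreated cells of the same line, with 3 libraries per group in the labels. In both groups exon 4 of the floxed endogenous Ash2l alleles had been deleted through a tamoxifen-inducible Cre-ER, and the cells lived on a lentivirally introduced human ASH2L fused to FKBP-F36V and HA tags. ASH2L is a core subunit of the complexes that methylate lysine 4 of histone H3. dTAG-13 ties the fusion protein to the E3 ligase subunit Cereblon and so leads to its degradation. The untreated cells were without dTAG-13, and the study's methods name no vehicle for the controls of the RNA sequencing. The study's legend for this comparison names 1 clone, NG3, and fewer replicates than the labels. Cells that lack the tagged protein were not analysed here with dTAG-13, so loss of ASH2L and any other action of the compound cannot be told apart.

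The deposited table gives no value per library, and each level below is the authors' mean normalized count over both groups. The values of the 8923 genes whose mean count did not exceed 3 were built from 5 distinct single-read values, to within 1e-10, where the labels list 6 libraries. Itgam and Krt14, each with a single read, had positive log2 fold changes at values of 0.139 and 0.362. Emcn, Gm27252 and Mir6899 had negative ones at 0.147, 0.206 and 0.212. By these signs the comparison held 2 dTAG-13 libraries and 3 untreated ones, and which labelled dTAG-13 library is absent is unknown. Depth per library is unknown, and where nothing says that the libraries came from separate cultures, a p-value measures only the spread between these libraries. All 8 fibroblast markers were tested, with mean normalized counts of 66.5 to 109792, and 3 of them were lower and 2 higher. Some listed markers of other cell types were at 0: Cdh5 for endothelium, Epcam, Krt8, Krt18 and Krt5 for epithelium, Adgre1 for macrophages, and Pou5f1, Sox2 and Zfp42 for pluripotent cells. These were 1 of 5 endothelial, 4 of 6 epithelial, 1 of 5 leukocyte and macrophage, and 3 of 5 pluripotent markers. Of the other markers on these lists the endothelial receptor gene Tek, at a mean normalized count of 17.5, was higher in dTAG-13-treated cells (log2 fold change 1.93 ± 0.65, adjusted p = 0.0021). The other markers with reads reached mean normalized counts of at most 2.72 on the endothelial (Pecam1) and 7.32 on the epithelial list (Cdh1). The highest were 25.4 on the leukocyte (Cd68) and 13.9 on the pluripotent list (Nanog). Levels per group are unknown, and the part of these markers in the KLF values was not tested. In bulk RNA, fewer cells with a transcript and less of it per cell cannot be told apart. Mouse Ash2l had a mean normalized count of 150 and a log2 fold change of -0.12 ± 0.20 (SE, adjusted p = 0.724), which is no measure of the degraded fusion protein. Reads were aligned to the mouse genome, and whether reads of the human ASH2L transgene were counted under mouse Ash2l was not tested.

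Loss of ASH2L was accompanied by lower transcript levels of 5 of the 10 KLF genes and a higher level of none. Klf4 and Klf5 were lowest relative to untreated cells, at 23.9% and 25.8% of the untreated level, followed by Klf2 at 46.3%, Klf7 at 68.2% and Klf13 at 73.5%. Klf3, Klf6, Klf9, Klf10 and Klf15 did not pass the threshold of an adjusted p under 0.05 in the authors' DESeq2 comparison. Over all tested genes 12.5% were lower, 7.45% were higher and 19.9% passed in either direction. The median log2 fold change was -0.41 over the 10 members and -0.02 over all tested genes. Among the 8236 genes whose mean normalized count reached 100, 18.1% were lower and the median was -0.05, and 9 of the members belong to these. At an unadjusted p under 0.05 the count was 7, with Klf9 and Klf15 in addition, of which Klf15 had 18 reads in total. Of all 16773 tested genes, at least 4928 and fewer than 5051 had an unadjusted p under 0.05, in either direction.

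**Figure D1:**
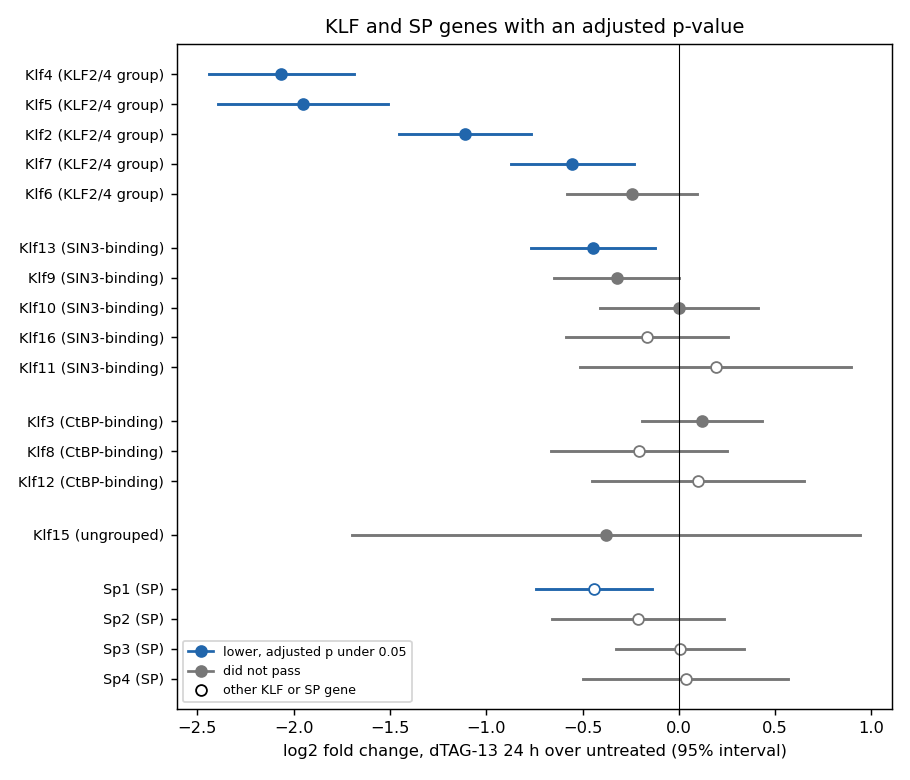
Log2 fold change of each KLF gene in dTAG-13-treated over untreated cells, with bars for the 95% interval made from the deposited standard error. Klf4 and Klf5 lie near -2, Klf2 near -1, and the intervals of Klf3, Klf6, Klf9, Klf10 and Klf15 reach 0.

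The KLF2/4 group recruits the acetyltransferases p300, CBP and PCAF and acts mostly in activation, and 4 of its 5 members described here fell. Klf4, one of the classical reprogramming factors and a regulator of growth arrest and epithelial differentiation, had a mean normalized count of 775 over both groups. Its log2 fold change was -2.06 ± 0.19 (SE, 95% interval -2.44 to -1.69, adjusted p = 8.4e-26), which put its level in dTAG-13-treated cells 4.18 times below that in untreated cells. Of the 8236 tested genes whose mean normalized count reached 100, 0.644% had a lower log2 fold change than Klf4. With 2 dTAG-13 and 3 untreated libraries, the mean and fold change of Klf4 imply 266 normalized counts in dTAG-13-treated cells and 1114 in untreated cells.

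Klf5, which promotes proliferation of epithelial and smooth muscle cells, changed by about as much as Klf4. Its mean normalized count was 375 and its log2 fold change -1.95 ± 0.23 (SE, adjusted p = 4.0e-17). The same split implies 138 normalized counts in dTAG-13-treated cells and 534 in untreated cells. The 95% intervals of Klf4 and Klf5 overlapped, so that no order between them can be given.

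Klf2, a regulator of endothelial function and of quiescence in T cells, fell less. Its mean normalized count was 481 and its log2 fold change -1.11 ± 0.18 (SE, 95% interval -1.45 to -0.77, adjusted p = 1.3e-09). The implied levels of Klf2 were 284 normalized counts in dTAG-13-treated cells and 613 in untreated cells. The intervals of Klf4 and Klf5 lay wholly below that of Klf2.

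Klf7, known for its part in neuronal development and for restraining fat cell differentiation, was lower by a smaller step (log2 fold change -0.55 ± 0.16, SE, mean normalized count 1443, adjusted p = 0.0025). Klf6, a widely expressed gene induced on tissue injury, had a mean normalized count of 3204. Its level in dTAG-13-treated cells was 84.5% of the untreated level with an interval of 66.8 to 107% (log2 fold change -0.24 ± 0.17, SE, adjusted p = 0.317), so a fall to the extent of Klf4 or Klf2 lay outside the interval while no change lay inside it.

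**Figure D2:**
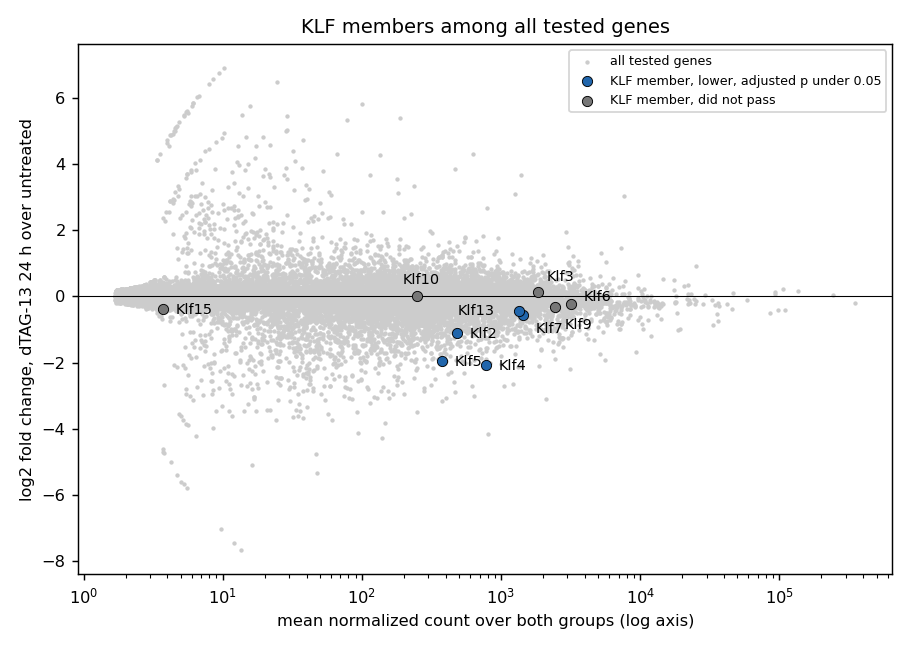
Log2 fold change of dTAG-13-treated over untreated cells against the mean normalized count over both groups on a log axis, with all tested genes in grey and the 10 KLF genes marked. Klf4, Klf5 and Klf2 sit below most genes of like abundance, and Klf15 sits among the genes with few reads.

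The SIN3-binding KLFs recruit the corepressor Sin3a through a short N-terminal motif, and 1 of the 3 described here passed. Klf13, described in T lymphocytes as an activator of the chemokine gene Ccl5, was lower (log2 fold change -0.44 ± 0.16, SE, mean normalized count 1348, adjusted p = 0.022). Klf9, which responds to glucocorticoids and thyroid hormone in other cells, had a mean normalized count of 2459 and a log2 fold change of -0.32 ± 0.17 (SE, adjusted p = 0.129, unadjusted p = 0.0353). Klf10, induced by TGF-beta in several cell types, stood at 100.1% of its untreated level with an interval of 75.3 to 133% (log2 fold change 0.001 ± 0.21, SE, adjusted p = 0.998).

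Klf3, which represses genes through CtBP and stands for the CtBP-binding KLFs here, had a mean normalized count of 1841 and was at 109% of the untreated level (log2 fold change 0.12 ± 0.16, SE, adjusted p = 0.656). Klf15, a regulator of amino acid and glucose metabolism in liver and muscle, had few reads. Its mean normalized count of 3.71 came from 18 reads over 4 of the 5 libraries that the values resolve, with 10 of the reads in 1 library. Its shrunken log2 fold change of -0.38 ± 0.67 (SE, adjusted p = 0.106) therefore carried an interval of -1.70 to 0.94, which includes both directions. The libraries in which 1 read gives a mean of 0.206, 0.212 and 0.147 held 10, 4 and 3 of the reads. By the signs of the single-read genes given above, these are the untreated libraries. The dTAG-13 libraries held 1 and 0 reads. Klf15 did not pass, and a fall that rests on 18 reads is not called here.

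The members differed among themselves. Of the 45 pairs of members, 20 had 95% intervals that did not overlap, which is a description and not a test of the pair. Klf4 and Klf5 lay apart from Klf2, Klf3, Klf6, Klf7, Klf9, Klf10 and Klf13, and Klf2 also lay apart from Klf3, Klf6, Klf9, Klf10 and Klf13. Apart from these, Klf3 and Klf7 were the single pair whose intervals lay apart. Neighbours in the order Klf7, Klf13, Klf9, Klf6, Klf10 and Klf3 had overlapping intervals.

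The zero point of the fold changes rests on the spike-in scaling by the authors, and the calls of the smaller falls depended on it. The median log2 fold change was -0.05 over tested genes whose mean normalized count reached 100 and -0.19 over 15 housekeeping genes. Recentred on the genes whose mean count reached 100, all 5 lower KLF genes still passed. Recentred on the housekeeping genes, Klf4, Klf5 and Klf2 passed while Klf7 (log2 fold change -0.37, adjusted p = 0.053) and Klf13 (log2 fold change -0.26, adjusted p = 0.20) did not. With that zero point 8.84% of all tested genes were lower and 13.8% higher.

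**Figure D3:**
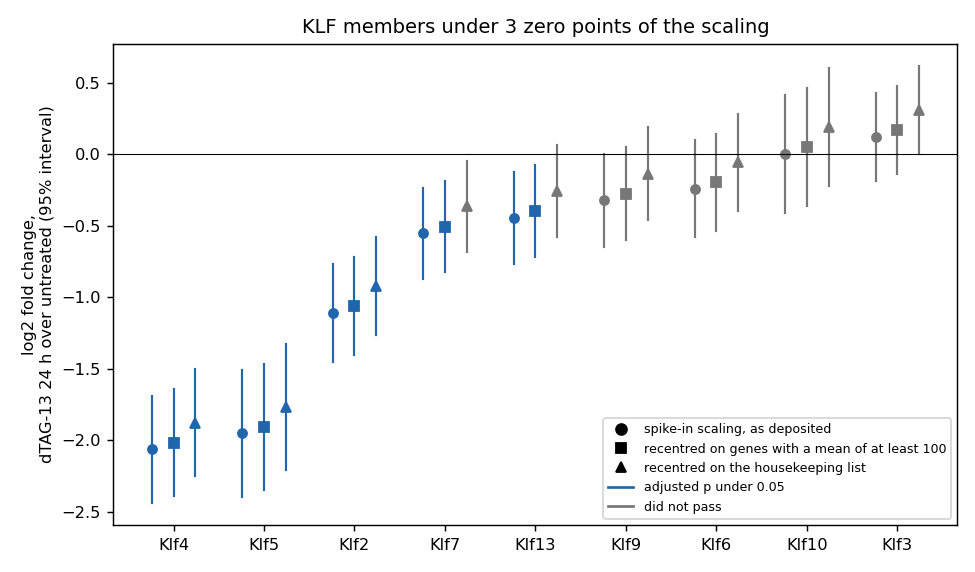
Log2 fold change of 9 KLF genes (Klf15 left out for its few reads) in dTAG-13-treated over untreated cells under 3 zero points, with bars for 95% intervals and blue for an adjusted p under 0.05. Klf4, Klf5 and Klf2 stay blue under each zero point, while Klf7 and Klf13 turn grey when recentred on the housekeeping genes.

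Of the other 7 KLF genes 4 were tested, and 0 passed in the authors' DESeq2 comparison, with 0 at an unadjusted p under 0.05. Their log2 fold changes ran from -0.21 for Klf8 to 0.19 for Klf11. Klf14 and Klf17 were listed at 0, and Klf1, the erythroid founding member, had 4 reads in 1 library and no adjusted p-value. Among the 9 genes of the related SP factors, which bind GC boxes through fingers of the same kind, 4 were tested. Sp1, at a mean normalized count of 1750, was lower (log2 fold change -0.44 ± 0.15, SE, adjusted p = 0.0155), and with the housekeeping zero point it no longer passed. Sp5, Sp6, Sp8 and Sp9 were listed at 0.

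Genes annotated near the members were examined because the labels and the methods name different library kits, so that counting by strand is uncertain. Klf2, Klf4, Klf5 and Klf10 had no other annotated gene within 5000 bases. Klf3 was overlapped by C230096K16Rik on the same strand over 1722 bases (mean normalized count 52.0, log2 fold change 0.64 ± 0.34, adjusted p = 0.0686) and by Gm20033 on the opposite strand over 730 bases (mean normalized count 2.68). The analysed genes that overlapped Klf7 and Klf13 had mean normalized counts of at most 0.212, and Gm26649, which overlaps Klf7 over 3465 bases on the opposite strand, was not analysed here.

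In the files' build, GRCm38, and the GENCODE M21 annotation, Klf4 (ENSMUSG00000003032.8) lies on chr4:55527143-55532466, minus strand. Klf5 (ENSMUSG00000005148.8) lies on chr14:99298691-99315036, plus strand, and Klf2 (ENSMUSG00000055148.7) on chr8:72319033-72321656, plus strand. Klf7 (ENSMUSG00000025959.13) lies on chr1:64029447-64122282 and Klf13 (ENSMUSG00000052040.10) on chr7:63886351-63938915, both on the minus strand. The upstream sequences of Klf4 and Klf2, which fell, and of Klf6, which did not pass, are shown because these genes belong to the same coactivator-recruiting group. They are RefSeq promoter sequences of GRCm38.p6 up to the first annotated base of the gene, 5′ to 3′ on the strand of the gene, with capitals for the GC box GGGCGG and for CACCC on either strand.
Klf4, chr4:55532476-55532725, minus strand: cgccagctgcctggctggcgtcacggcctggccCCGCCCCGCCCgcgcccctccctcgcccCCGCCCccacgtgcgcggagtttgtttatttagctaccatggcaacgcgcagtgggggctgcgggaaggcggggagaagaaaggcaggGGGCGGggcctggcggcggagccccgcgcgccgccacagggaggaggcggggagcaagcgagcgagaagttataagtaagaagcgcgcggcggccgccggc
Klf2, chr8:72318812-72319032, plus strand: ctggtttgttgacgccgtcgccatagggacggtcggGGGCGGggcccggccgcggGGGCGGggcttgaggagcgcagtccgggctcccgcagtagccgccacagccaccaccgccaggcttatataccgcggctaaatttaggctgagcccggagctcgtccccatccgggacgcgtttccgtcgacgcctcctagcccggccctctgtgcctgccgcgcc
Klf6, chr13:5861239-5861481, plus strand: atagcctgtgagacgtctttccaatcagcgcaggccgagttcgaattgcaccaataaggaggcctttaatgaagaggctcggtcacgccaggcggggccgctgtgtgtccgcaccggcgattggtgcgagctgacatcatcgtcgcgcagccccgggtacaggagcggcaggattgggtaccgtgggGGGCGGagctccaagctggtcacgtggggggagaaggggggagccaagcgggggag

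The Klf4 sequence held 4 GC boxes, that of Klf2 held 2 and that of Klf6 held 1, and no CACCC was found in any of these 3. For 8 of the 10 members the RefSeq table held the 250 bases before the RefSeq start, and these whole windows were used for the counts that follow. By the GENCODE annotation the Klf7 window lies wholly inside the gene, as do 133 bases of the Klf3 window, 29 of that of Klf2 and 7 of that of Klf6. At least 1 GC box stood in 7 of these 8 and in 32.7% of 32851 promoters, and CACCC stood in 6 of 8 and in 52.0% of promoters. Without the bases inside the annotated genes, a GC box stood in 6 of the remaining 7 members and CACCC in 4 of 7, since no base of the Klf7 window was left and the trimmed Klf2 sequence held none. CCAAT was found in 4 of 8 members and in 33.8% of promoters, and the AP-1 motif TGANTCA in Klf9 alone among the members and in 6.75% of promoters. TATAAA, the cAMP response element TGACGTCA, the glucocorticoid response element and the CArG box were each found in 0 of the 8, against 12.4%, 1.55%, 0.00913% and 1.47% of promoters, all motifs having been searched on both strands. The GC content of the members ran from 59.2 to 78.4%, with a median of 71.4%, against a median of 52.4% over all promoters. A match of letters is a description and not a bound site.

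Genes tied to KLF factors by function were counted in lists drawn up from textbook knowledge. Counting each gene once, 66 of 74 were tested, of which 11 (16.7%) were lower and 3 (4.55%) higher in dTAG-13-treated cells. These shares lie near those over all tested genes, 12.5% lower and 7.45% higher. With the housekeeping zero point 5 were lower (Dusp1, Mef2a, Pdgfa, Rbbp7 and Tagln) and 8 were higher, the 3 higher before and Mrtfb, Siah1a, Sin3b, Suds3 and Zeb1. At that zero point 8.84% of all tested genes were lower and 13.8% higher.

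Of 10 genes of the SIN3-HDAC complex, 1 was lower, Rbbp7, a histone-binding subunit (log2 fold change -0.80 ± 0.17, SE, adjusted p = 9.0e-06), and none was higher on the deposited scale. Of 8 CtBP complex genes, 0 passed, with a list median of 0.07. Among the 4 coactivator genes, Kat2b, which encodes PCAF, was higher (log2 fold change 0.61 ± 0.23, SE, adjusted p = 0.0162), and Ep300, Crebbp and Kat2a did not pass.

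In the lists of upstream regulators some genes passed in each direction, against 12.5% lower and 7.45% higher over all tested genes. Among genes whose mean normalized count reached 100 these shares were 18.1% and 9.49%. In endothelial cells the kinase ERK5 induces Klf2 and Klf4 through MEF2 factors, and 3 of the 7 genes of that route passed. Mef2c was higher (log2 fold change 1.19 ± 0.18, SE, adjusted p = 8.9e-11), whereas Mef2a was lower (log2 fold change -0.64 ± 0.20, SE, adjusted p = 0.0030). Mef2d was lower on the deposited scale only just (log2 fold change -0.51 ± 0.23, SE, adjusted p = 0.0471), and it did not pass with either other zero point or with adjustment over every gene with a p-value.

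SRF, the serum response factor that controls many growth factor-induced genes, was lower at the RNA level (Srf, log2 fold change -0.81 ± 0.32, SE, adjusted p = 0.0139), the single one of 6 tested genes of its list to pass, and with the housekeeping zero point it missed the threshold. Among the glucocorticoid receptor and its targets, 8 of 9 were tested, 3 were lower and 1 was higher. The phosphatase gene Dusp1 fell by 1.12 on the log2 scale (SE 0.20, adjusted p = 5.2e-08), while Cebpd, a transcription factor gene induced in acute phase and stress responses, rose (log2 fold change 1.81 ± 0.17, SE, adjusted p = 1.1e-24). Errfi1, a feedback inhibitor of the EGF receptor, and Nr3c1, the receptor gene itself, were lower with adjusted p-values of 0.0124 and 0.0386. Neither passed with the housekeeping zero point, and Nr3c1 also missed the threshold when recentred on the genes whose mean count reached 100 (adjusted p = 0.0653) and when p was adjusted over every gene with a p-value (adjusted p = 0.0557). Klf9, itself a glucocorticoid target in other cells, did not pass, as given above.

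The TGF-beta list, which bears on Klf10, held 10 tested genes, of which Tgfb2 was lower (log2 fold change -0.48 ± 0.17, SE, adjusted p = 0.016) except with the housekeeping zero point. Of 6 tested ubiquitin ligase genes known to act on KLF proteins, 0 passed on the deposited scale, with a median log2 fold change of -0.004. Protein levels of the KLFs were not analysed here.

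Of 14 genes described as KLF targets in other cells, 9 were tested, 3 were lower and 0 higher. Pdgfa, a growth factor gene described downstream of Klf5 in vascular cells, was lower (log2 fold change -0.93 ± 0.18, SE, adjusted p = 5.7e-07). Tagln, the smooth muscle gene for transgelin, had a log2 fold change of -1.05 ± 0.48 (SE, adjusted p = 0.0173). Lgals3, which encodes galectin-3, was lower on the deposited scale (log2 fold change -0.52 ± 0.16, SE, adjusted p = 0.0036) and not with the housekeeping zero point. The cell cycle inhibitor gene Cdkn1a, described as activated by Klf4, did not pass (log2 fold change -0.15 ± 0.17, SE).

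**Figure D4:**
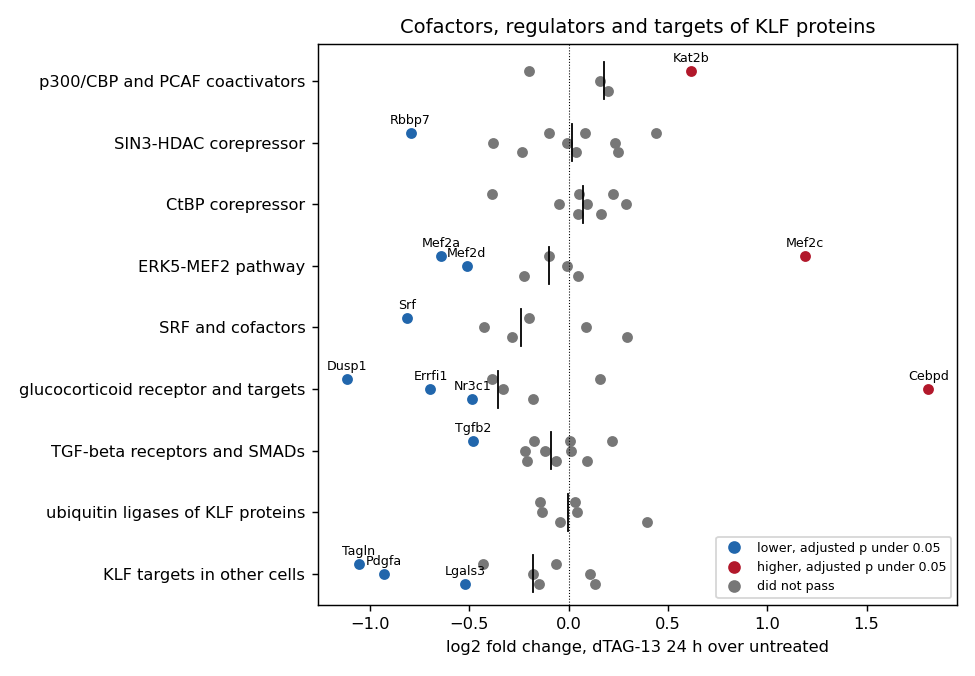
Log2 fold change of dTAG-13-treated over untreated cells for each tested gene of 9 function lists, 1 point per gene, with blue for lower, red for higher and grey for genes that did not pass, and a bar at each list median. Cebpd and Mef2c lie farthest right and Dusp1, Tagln and Pdgfa farthest left, and no gene of the CtBP or ubiquitin ligase lists passed.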

How the data were processed

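Libraries were grouped by the sample titles, which also give the time of 24 h, while the treatment protocol in the labels lists shorter times only. Per the study's methods, the authors ran Trim Galore, aligned reads to mm10 with STAR, counted them with featureCounts, scaled to ERCC spike-ins and fitted DESeq2, with tool versions not given in the sources used here. The submitters' processing notes also list BWA, SAMtools, MACS2 and deepTools. Library kits differed between sources, a stranded kit for total RNA in the labels and a 3′ mRNA kit in the methods.

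The deposited signal is a mean normalized count over both groups. The deposited log2 fold change (dTAG-13 over untreated) and its standard error were shrunken by the authors. The deposited p-value is from the authors' DESeq2 test, 2-sided, with Benjamini-Hochberg adjustment over the genes that passed their filter, which recomputation over these genes matched. No values per library were analysed, so no new model was fitted, and the fold changes, standard errors and p-values on the deposited scale are the authors' own. The 95% intervals, percentages of the untreated level, implied levels per group and recentred or readjusted p-values were computed here from them. Here a call meant an adjusted p under 0.05, and intervals were the log2 fold change with a 95% normal interval. Recentring subtracted a median and shifted the normal score of each deposited p by that median over the standard error. This step was run on simulated data with a shift known beforehand. That run did not cover taking the shift from a median, or using a shrunken standard error beside a deposited p. Alternatives were 2 zero points, 2 sets of genes for adjustment, a threshold of 0.01 and the 95% interval.

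The members, the lists and the naming rule (all members, other KLF or SP genes and up to 3 genes per direction of each list that passed) were chosen with earlier results of these data known. Cdkn1a, Ep300, Crebbp, Kat2a and the genes gained under recentring were named after their values were seen. Python 3.11.15, numpy 2.4.6, pandas 2.3.3, scipy 1.17.1 and matplotlib 3.10.9 were used, with GENCODE M21 positions and RefSeq promoters.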

Additional observations from a re-analysis of the deposited data

How the results depend on the processing

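The count of 5 lower KLF genes was 3 with the housekeeping zero point, 4 at an adjusted p under 0.01 (Klf13 lost) and 5 under the other 4 alternatives, and the count of higher members was 0 under all 6. Over all genes the share lower was 12.5% as deposited, 8.84% with the housekeeping zero point and 9.11% at an adjusted p under 0.01. It was 11.2% with the zero point at genes whose mean count reached 100, and 14.1% by the 95% interval. Adjusting over every gene with a p-value gave 7.88%, and over genes whose mean count reached 100 gave 19.5%. The share higher ran from 4.37% to 13.8% over these settings. With the housekeeping zero point, the lower count of other KLF and SP genes was 0 against 1, and that of the function lists was 5 against 11, with 8 against 3 higher. The function lists held 9 lower genes with the zero point at genes whose mean count reached 100, and 9 with adjustment over every gene with a p-value. Of 59 values of single members under the alternatives, 56 kept their direction and side of the threshold, 3 lost the call and 0 reversed. Klf4, Klf5 and Klf2 passed under each alternative. Depth is unknown, and precision can be read only from the standard errors, whose median was 0.18 on the log2 scale for genes whose mean count reached 100 and 0.26 over all tested genes. The scaling differed between libraries: 1 read added from 0.139 to 0.362 to a mean normalized count. Both ends of that range were dTAG-13 libraries, and the effect of this on the calls was not tested. No paired analysis was possible because the table analysed holds no values per library, and leaving out each replicate in turn was not run for the same reason.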
